A study of Mus musculus with 6 samples.

Results

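Guca1b, Tjap1, Dlk2, Pla2g7, Pot1b and Prss27 are protein-coding genes of mouse chromosome 17, the chromosome that carries Trem2, and none of them is a gene of the H2 histocompatibility complex. They were taken as 6 listed symbols out of 32285 genes in each library, and they had been chosen by their levels in knockout against wild type in earlier results of the same libraries. That difference is therefore given below as a description of each library, without a test. The study compared frontal lobe nuclei of Tg-SwDI mice with 2 Trem2 genotypes, wild type (labelled SwDI/TWT, 3 mice) and knockout (labelled SwDI/TKO, 3 mice), with 1 single-nucleus RNA library per mouse. The line expresses mutant human amyloid precursor protein (Swedish, Dutch and Iowa changes) in neurons under a Thy1 promoter and forms amyloid in brain vessels. Both groups carried the transgene, so no group lacked it. The age and sex of the mice, the construction of the Trem2 allele and the strain in which it was made were given by none of the sources used here.

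As background, a knockout allele that is made in one strain and bred into another brings a stretch of the original chromosome with it, and genes on that stretch can then differ in sequence between knockout and wild-type mice whatever the targeted gene does. Differences that come from the lost gene and differences that come from the linked stretch cannot be told apart by comparing such mice. Trem2 itself is a lipid-sensing receptor of microglia, the macrophages of the brain. The listed genes have unrelated roles: Guca1b encodes a calcium-sensing activator of guanylate cyclase in photoreceptors, Tjap1 a protein of tight junctions and the Golgi, Dlk2 a transmembrane relative of the Notch ligands, Pla2g7 the secreted hydrolase that inactivates platelet-activating factor, Pot1b a protein that binds single-stranded telomere ends, and Prss27 a trypsin-like serine protease.

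On the GRCm38 build with GENCODE M21 gene models, Trem2 lies on the plus strand at chr17:48346401-48354147, and the distances below run between gene starts. Guca1b (ENSMUSG00000023979, plus strand, chr17:47385393-47392967) is the nearest of the listed genes, 0.961 Mb away. Dlk2 (ENSMUSG00000047428, plus strand, chr17:46297421-46303271) and Tjap1 (ENSMUSG00000012296, minus strand, chr17:46257851-46283026) start 2.05 and 2.06 Mb away, and Pla2g7 (ENSMUSG00000023913, plus strand, chr17:43568098-43612201) starts 4.78 Mb away. Pot1b (ENSMUSG00000024174, minus strand, chr17:55651951-55712628) lies on the other side of Trem2 at 7.37 Mb. Prss27 (ENSMUSG00000050762, plus strand, chr17:24038144-24045954) is 24.3 Mb from Trem2, so the name "near Trem2" holds for the others but not for Prss27. Dlk2 overlaps Abcc10 on the opposite strand, and Pla2g7 overlaps 1700071M16Rik on the opposite strand; the use of strand in the counting was given by none of the sources used here, so reads of overlapping genes may have been shared.

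The 6 libraries held 39752 barcodes, of which 33008 nuclei were kept (4427 to 7460 per library). Total UMI counts (unique molecular identifiers, each 1 captured transcript) were between 11493087 and 17835287 in 5 libraries and 51317961 in knockout replicate 1. That library was processed with Cell Ranger 7.0.0 and the others with 6.1.2, its nuclei had a median of 5310 UMIs against 1445 to 2465 elsewhere, and most of its oligodendrocyte, excitatory and striatal projection nuclei formed clusters of their own (83.1%, 96.8% and 94.9% of its nuclei of those classes). Values are therefore given with it and without it. Nuclei were sorted into 7 classes large enough in every library (oligodendrocytes, oligodendrocyte precursors, astrocytes, microglia, and excitatory, inhibitory and striatal projection neurons), each named from its markers and strictly a class of nuclei that resemble that type; 37.9% of nuclei stayed unnamed and count only in the totals over all nuclei. Trem2 in microglia was 2064, 1733 and 1009 in wild type against 338, 790 and 513 in knockout, in normalized CPM (UMIs scaled to a common library size), or 34.1% of wild type, so the 3 knockout libraries lay below the wild-type ones without reaching 0. Whether the remaining Trem2 reads come from outside the deleted part was not tested. In bulk sums over all nuclei, fewer nuclei of a type and less RNA per nucleus cannot be told apart.

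Over all nuclei, Guca1b, Pla2g7 and Prss27 were lower in every knockout library than in every wild-type library, Tjap1 was higher, and Dlk2 and Pot1b overlapped. The background for such separation was 5.35% of the 16425 genes tested for lower and 5.46% for higher, and since the same contrast chose the genes, nothing is read from their count. The edgeR quasi-likelihood test called 0 of the 16425 genes (0.0%) at an adjusted p below 0.05, with 620 at an unadjusted p below 0.05, and DESeq2 called 0. The separated genes therefore stand in data in which no gene passed a test across all genes.

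**Figure D1:**
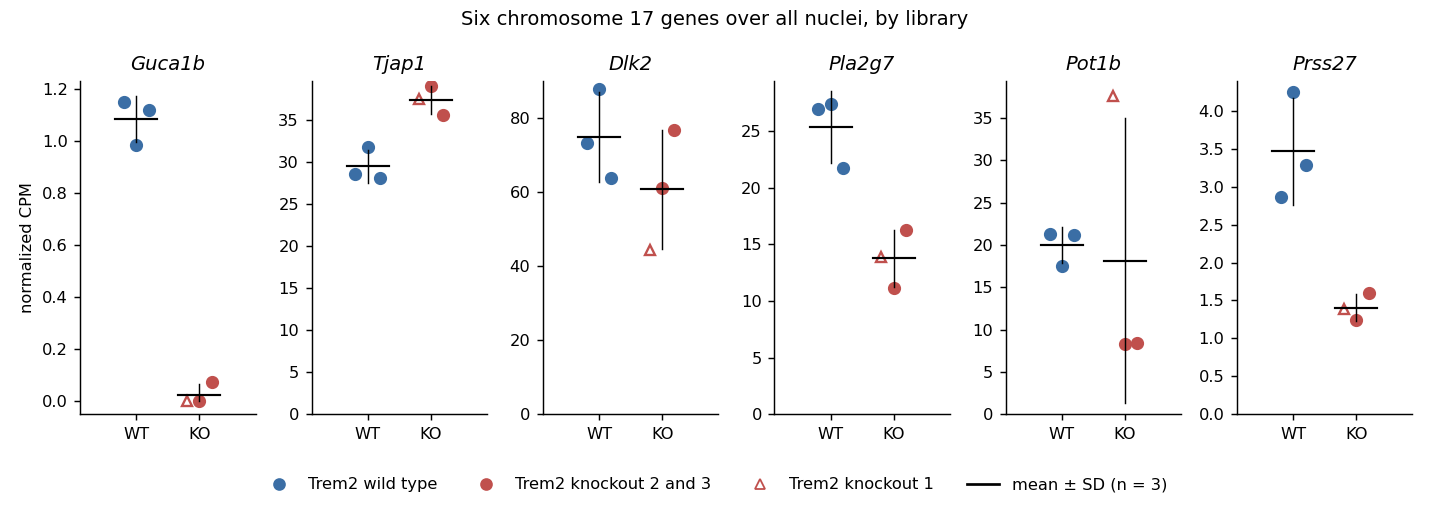
Normalized CPM (vertical axes, each from about 0) of the 6 genes over all nuclei, with 1 point per library and the mean ± SD of 3 libraries per genotype. Guca1b averages 1.08 in wild type against 0.0241 in knockout, Pot1b separates only when knockout replicate 1 (open triangle, 37.6) is set aside, and Tjap1 is the gene whose 3 knockout points all lie above wild type.

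Guca1b had the largest fitted log2 difference of the listed genes, -5.45 (SE 0.82) over all nuclei and -4.46 without knockout replicate 1. The value was -7.20 without knockout replicate 3, which held the only knockout UMI, and -4.85 with all deposited barcodes. Without that replicate the knockout group held 0 Guca1b UMIs, so -7.20 is not a measured ratio, and -5.45 rests on 1 knockout UMI. Guca1b had 12, 13 and 15 UMIs in the wild-type libraries and 0, 0 and 1 in the knockout libraries, although the knockout libraries together held more UMIs (70214096 against 36747850). Of the knockout total, 47876658 were in knockout replicate 1. Knockout replicates 2 and 3 held 10242293 and 12095145, beside 10105565 to 13893370 in the wild-type libraries. In normalized CPM Guca1b was at 1.15, 0.985 and 1.12 in wild type against 0, 0 and 0.0724 in knockout. The groups did not overlap, and the deepest library, knockout replicate 1, was among those with no UMI. The gene is close to the limit of detection in this tissue, as its 40 wild-type UMIs were spread over 39 of 16532 nuclei. By class, 10 of these UMIs were in striatal projection neurons, 8 in excitatory neurons and 6 in inhibitory neurons, with 1 in microglia, 1 in oligodendrocyte precursors and 0 in astrocytes and oligodendrocytes. The single knockout UMI was in a striatal projection neuron of replicate 3. No class had enough counts for a fitted difference, and over all nuclei the gene passed the low-count filter through its wild-type counts alone.

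The nearest tested genes on either side of Guca1b were Mrps10 and Taf8. Mrps10, a mitochondrial ribosomal protein gene, had 68.1, 65.5 and 79.3 CPM in wild type against 71.5, 103.7 and 96.5 in knockout. Taf8, a subunit of the general transcription factor TFIID, had 17.5, 16.97 and 15.5 in wild type against 17.9, 15.2 and 12.5 in knockout. Both overlapped between the genotypes with 6 libraries, and without knockout replicate 1 Mrps10 was higher and Taf8 lower in both remaining knockout libraries.

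Tjap1 and Dlk2 are neighbours that point away from each other, with 14394 bases between their gene bodies, and they are shown together because both were higher in knockout oligodendrocytes. The windows below are the RefSeq promoter sequences (GRCm38.p6, 250 bases before to 50 after each listed start, printed 5′ to 3′ on the strand of the gene), at chr17:46282977-46283276 on the minus strand for Tjap1 and at chr17:46297233-46297532 and chr17:46297678-46297977 on the plus strand for the 2 starts of Dlk2. Capitals mark the GC box, the letters GGGCGG or, on the other strand, CCGCCC.
Tjap1: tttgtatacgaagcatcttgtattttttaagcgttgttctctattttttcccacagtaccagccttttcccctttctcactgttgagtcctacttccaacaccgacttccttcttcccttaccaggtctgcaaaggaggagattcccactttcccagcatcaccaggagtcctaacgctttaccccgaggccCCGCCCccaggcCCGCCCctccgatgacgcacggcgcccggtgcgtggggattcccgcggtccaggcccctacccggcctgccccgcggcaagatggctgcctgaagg
Dlk2 first start: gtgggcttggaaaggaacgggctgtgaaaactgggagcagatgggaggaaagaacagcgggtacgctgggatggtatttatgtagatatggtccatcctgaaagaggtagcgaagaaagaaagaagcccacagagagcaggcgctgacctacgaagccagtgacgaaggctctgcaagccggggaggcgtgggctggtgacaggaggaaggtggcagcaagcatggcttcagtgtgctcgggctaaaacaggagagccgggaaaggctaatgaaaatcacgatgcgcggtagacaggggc
Dlk2 second start: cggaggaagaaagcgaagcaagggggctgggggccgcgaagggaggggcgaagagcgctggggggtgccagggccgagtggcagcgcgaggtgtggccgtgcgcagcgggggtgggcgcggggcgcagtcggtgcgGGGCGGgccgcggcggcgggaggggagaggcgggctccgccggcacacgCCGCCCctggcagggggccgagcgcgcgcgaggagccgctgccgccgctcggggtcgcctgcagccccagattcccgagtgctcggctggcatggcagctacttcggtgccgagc
The Tjap1 window holds 2 GC boxes and 18 CpG dinucleotides at 58.0% GC. The first Dlk2 window holds 0 GC boxes and 14 CpG, and the second holds 2 GC boxes and 41 CpG at 78.3% GC. For comparison, 35.7% of 32851 RefSeq promoter windows of this length hold a GC box, and their median is 7 CpG and 52.7% GC. None of the 3 windows holds TATAAA or its reverse complement TTTATA, which 13.6% of all windows do. A match of letters is a description of the window and was not measured in these mice.

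In oligodendrocytes, the myelin-forming cells, Tjap1 was at 83.9, 97.5 and 116 CPM in wild type against 183, 274 and 242 in knockout. All knockout libraries lay above all wild-type libraries, and knockout replicate 1 was the lowest of the 3. The knockout mean was 235% of the wild-type mean, a fitted log2 difference of 1.23 (SE 0.29), and 1.36 without knockout replicate 1. The background for every knockout library being higher in oligodendrocytes was 5.32% of the genes tested, and 8.11% without replicate 1. The UMIs behind these levels were 46, 56 and 65 in wild type against 337, 186 and 145 in knockout. With each nucleus thinned to 500 UMIs, which left out 0 nuclei, 4.61%, 3.95% and 4.16% of wild-type oligodendrocytes had a Tjap1 UMI and 7.63%, 13.4% and 11.8% of knockout ones did. Unthinned, the shares were 6.54%, 7.48% and 8.74% against 22.7%, 21.6% and 19.6%, at median depths of 776 to 821 UMIs in wild type against 818 to 1598 in knockout. In excitatory neurons thinned in the same way, the shares were 1.12%, 1.34% and 0.522% in wild type against 0.847%, 1.06% and 1.78% in knockout, so the oligodendrocyte shares lay above the neuronal ones in every library.

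Dlk2 was also higher in knockout oligodendrocytes. It was at 10.9, 26.1 and 24.9 CPM in wild type against 46.2, 112 and 66.7 in knockout, again without overlap and again with knockout replicate 1 the lowest of its group. The knockout mean was 362% of the wild-type mean, a fitted log2 difference of 1.83 (SE 0.45), and 2.08 without knockout replicate 1. With classes drawn by a gate on marker UMIs in place of clusters, the log2 difference was 0.96. The counts were 6, 15 and 14 UMIs in wild type against 85, 76 and 40 in knockout. Thinned shares were 0.594%, 1.55% and 1.11% in wild type against 1.67%, 5.51% and 3.69% in knockout; unthinned they were 0.892%, 2.12% and 1.94% against 6.44%, 8.95% and 5.32%. Astrocytes, in which Dlk2 was lowest of the 7 classes, had thinned shares of 0.0% to 0.581% in all libraries.

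The oligodendrocyte values were checked against other cell types in the same sums. All 9 oligodendrocyte markers were detected, at a summed level of 20560 to 22747 CPM in wild type against 17185 to 24341 in knockout. Of the excitatory neuron markers 8 of 8 were detected, at 192 to 294 CPM in wild type against 209 to 232 in knockout, and these ranges overlapped. Inhibitory neuron markers (10 of 10 detected) were at 273 to 360 CPM in wild type against 1532, 272 and 400 in knockout, and their part in the result was not tested. Most oligodendrocytes of knockout replicate 1 lay in cluster 12 and those of the other 5 libraries in cluster 2. Within cluster 2, Tjap1 was at 93.4 CPM in wild type against 255 in knockout, and Dlk2 at 19.5 and 82.1, pooled over libraries.

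**Figure D2:**
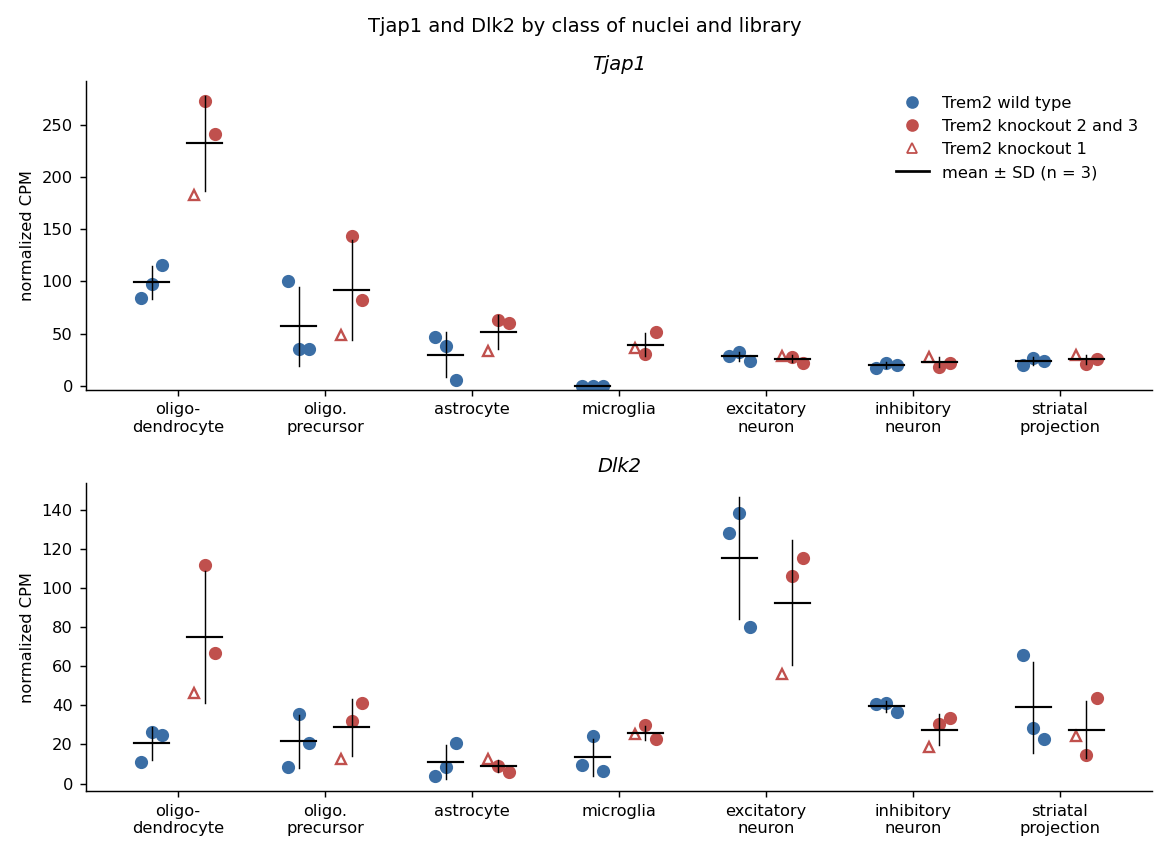
Normalized CPM (vertical axes) of Tjap1 and Dlk2 in 7 classes of nuclei, with 1 point per library and the mean ± SD of 3 libraries per genotype. Knockout points lie above wild type for both genes in oligodendrocytes, while neuronal points of Tjap1 overlap and Dlk2 in inhibitory neurons lies lower in knockout.

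Tjap1 was also split in microglia, where it had 0, 0 and 0 UMIs in wild type against 13, 5 and 9 in knockout. The wild-type total of 422221 microglial UMIs puts the floor of 3 counts over the group at 7.11 CPM. The pooled knockout level of 30.3 CPM was 4.26-fold above that floor. This value leaves out the counting error of the 27 knockout UMIs and the spread between mice. Knockout microglia, at 36.3, 29.9 and 51.3 normalized CPM, were close to the level over all nuclei of those libraries (37.5, 39.0 and 35.6), and the part of free RNA in these few UMIs was not tested. Dlk2 in microglia had 1, 2 and 1 UMIs in wild type against 9, 5 and 4 in knockout, and its levels overlapped. The background for every knockout library being higher in microglia was 5.31% of the genes that passed the low-count filter. Neither Tjap1 nor Dlk2 passed that filter in microglia, so the share does not cover genes as low as these.

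In the other classes Tjap1 overlapped between the genotypes with all 6 libraries. In oligodendrocyte precursors it was at 100.3, 35.4 and 34.8 CPM in wild type against 48.8, 144 and 82.6 in knockout. Cluster 25, with Gpr17 and Bcas1 among its top genes, held 29 of the 116 precursor nuclei of knockout replicate 2. It held 2 to 8 in each other library, and the other precursors were in cluster 14. Within cluster 14, Tjap1 was at 41.2 CPM in wild type against 35.5 in knockout, pooled over libraries with replicate 1 included. That replicate, the deepest library, held 238 of the 469 knockout nuclei of cluster 14, so the pooled value is weighted towards it. The part of cluster 25 in the levels of knockout replicates 2 and 3 was not tested. In astrocytes it was at 46.6, 37.6 and 5.16 in wild type against 32.9, 62.6 and 59.7 in knockout, which overlap with knockout replicate 1 and separate without it (background 10.2% higher), on 1 to 24 UMIs per library. The fitted log2 differences in excitatory, inhibitory and striatal projection neurons were -0.13, 0.20 and 0.09, and their groups overlapped with and without knockout replicate 1. Over all nuclei Tjap1 was at 28.6, 31.7 and 28.2 CPM in wild type against 37.5, 39.0 and 35.6 in knockout, a log2 difference of 0.34 with and without that replicate. Oligodendrocytes were 673 of 5166, 709 of 5543 and 721 of 5823 nuclei in wild type. In knockout they were 1258 of 7460, 726 of 4589 and 677 of 4427, and the part of these shares in the level over all nuclei was not tested.

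Dlk2 in neurons was lower or overlapped. In inhibitory neurons it was at 40.8, 41.4 and 36.4 CPM in wild type against 18.5, 30.5 and 33.4 in knockout, so that every knockout library was lower. The fitted log2 difference was -0.56, and -0.31 without knockout replicate 1, the lowest library; the background for lower was 5.45% with it and 9.2% without it. Excitatory neurons held the highest Dlk2 level and overlapped, at 128, 138 and 80.0 CPM in wild type against 56.1, 106 and 115 in knockout. Knockout replicate 1 was the lowest of the 6, and the log2 difference went from -0.32 to -0.06 without it. Over all nuclei Dlk2 was at 73.2, 87.9 and 63.9 CPM in wild type against 44.5, 61.1 and 76.8 in knockout.

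The genes beside this pair overlapped over all nuclei with 6 libraries. Abcc10, a transporter gene whose body overlaps Dlk2, was at 12.7, 15.7 and 15.3 CPM in wild type against 13.1, 22.6 and 17.8 in knockout, and so was higher in both knockout libraries once replicate 1 was left out. Lrrc73, the nearest tested gene on the other side of Tjap1, was at 19.6, 24.5 and 25.02 in wild type against 11.1, 16.0 and 20.6 in knockout, and overlapped with and without that replicate.

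Pla2g7 was lower in knockout over all nuclei. Astrocytes held 29.6% of its wild-type UMIs and striatal projection neurons 20.5%. Over all nuclei it was at 27.0, 27.4 and 21.7 CPM in wild type against 13.9, 11.1 and 16.2 in knockout. No knockout library reached the lowest wild-type library, the knockout mean was 54.2% of wild type, and the log2 difference was -0.88 with knockout replicate 1 and -0.89 without it. Astrocytes were 235 of 5166, 217 of 5543 and 172 of 5823 nuclei in wild type. In knockout they were 361 of 7460, 87 of 4589 and 129 of 4427, and the part of these shares in the level over all nuclei was not tested. In astrocytes Pla2g7 was at 326, 439 and 454 CPM in wild type against 352, 161 and 227 in knockout. Knockout replicate 1 lay inside the wild-type range of normalized CPM there, and the other knockout libraries lay below it. The log2 difference was -0.69 with replicate 1 and -1.05 without it. With classes drawn by the gate on marker UMIs the difference was -0.23. In plain CPM, knockout replicate 1 lay below all 3 wild-type libraries (279, 385 and 357), so its place depended on the scaling. Without replicate 1 the knockout mean was 47.7% of wild type, beside a background of 10.6% of genes lower in both knockout libraries. Its counts in the remaining knockout astrocytes were small, 18 and 38 UMIs from 87 and 129 nuclei, against 84, 105 and 88 in wild type. All astrocytes lay in cluster 11 except in wild-type replicate 1 and knockout replicate 2, where 87.7% and 80.5% did. The remaining nuclei of those libraries were in cluster 27, and all 277 wild-type Pla2g7 UMIs were in cluster 11. Within cluster 11, Pla2g7 was at 351 CPM in wild type against 243 in knockout, pooled over libraries with replicate 1 included. That replicate, the deepest library, held 361 of the 560 knockout nuclei of cluster 11, so the pooled value is weighted towards it and says little about the other knockout libraries. The part of cluster 27 in the low level of knockout replicate 2 was not tested. Astrocyte markers (9 of 9 detected) summed to 11715 to 13312 CPM in wild type against 9658 to 22409 in knockout, and their part in the astrocyte difference was not tested.

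The other fitted classes had less Pla2g7. In striatal projection neurons it was at 31.5, 27.7 and 22.3 CPM in wild type against 6.44, 20.3 and 12.5 in knockout, lower in every knockout library (log2 -1.05, and -0.76 without knockout replicate 1, beside a background of 5.34% lower). Excitatory neurons overlapped at 5.05 to 10.4 CPM in wild type against 1.92 to 5.89 in knockout, and inhibitory neurons overlapped as well. A small cluster with border macrophage markers, with 12 to 61 nuclei per library, was too small for a fit. Its pooled Pla2g7 level was 316 CPM in 88 wild-type nuclei (21 UMIs) and 214 in 128 knockout nuclei (46 UMIs). Pooled levels show no spread between mice, so no genotype difference is read from them. The neighbouring genes Tdrd6 and Adgrf5, at 1.24 to 1.97 and 0.530 to 1.34 CPM in wild type, overlapped between the genotypes with 6 libraries; without knockout replicate 1 Tdrd6 was higher in both remaining knockout libraries.

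Pot1b depended on knockout replicate 1. Over all nuclei it was at 21.3, 17.5 and 21.1 CPM in wild type against 37.6, 8.31 and 8.48 in knockout. The other 2 knockout libraries lay below every wild-type library and replicate 1 lay above all of them, so the log2 difference was -0.13 with it and -1.25 without it, when the knockout mean was 42.0% of wild type. The same arrangement held in each of the 7 classes: with 6 libraries the groups overlapped in 7 of 7, and without replicate 1 both knockout libraries were lower in 7 of 7. The share of genes lower by that rule without replicate 1 was 9.69% over all nuclei. In the classes, which come from the same mice and are not separate evidence, it was 8.7% in microglia, 10.6% in astrocytes, 8.58% in oligodendrocytes, 9.67% in their precursors, and 9.16%, 9.2% and 9.34% in excitatory, inhibitory and striatal projection neurons. In microglia, where the gene was highest of the 7 classes, it was at 103, 145 and 111 CPM in wild type against 179, 47.9 and 62.7 in knockout. In oligodendrocytes it was at 45.6, 52.2 and 73.0 in wild type against 97.2, 27.9 and 36.7 in knockout. In excitatory neurons it was at 18.1, 13.4 and 15.5 in wild type against 28.5, 6.07 and 6.39 in knockout. Without replicate 1 the log2 differences ran from -0.84 in oligodendrocytes to -1.91 in inhibitory neurons among the 5 classes with a fit.

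Knockout replicate 1 exceeded the mean of the other knockout libraries 4.47-fold for Pot1b over all nuclei. Of the 16425 genes tested, 8.82% had a ratio at least that large, and the median ratio was 0.958. Pot1b has the most intron sequence in total of the listed genes, 55410 bases, against 41199 for Pla2g7, 20475 for Tjap1, 6558 for Prss27, 5134 for Guca1b and 3738 for Dlk2. The ratio was 1.01 for Pla2g7, 1.005 for Tjap1, 0.980 for Prss27 and 0.645 for Dlk2. Whether intron reads were counted in that library was given by none of the sources used here, and the part of introns in the Pot1b level was not tested. St6gal2 and Zfp119a, the nearest tested genes on either side, overlapped between the genotypes; St6gal2, a sialyltransferase gene, was at 26.1 to 32.2 CPM in wild type against 100.8, 32.6 and 31.9 in knockout, and so was also highest in replicate 1.

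**Figure D3:**
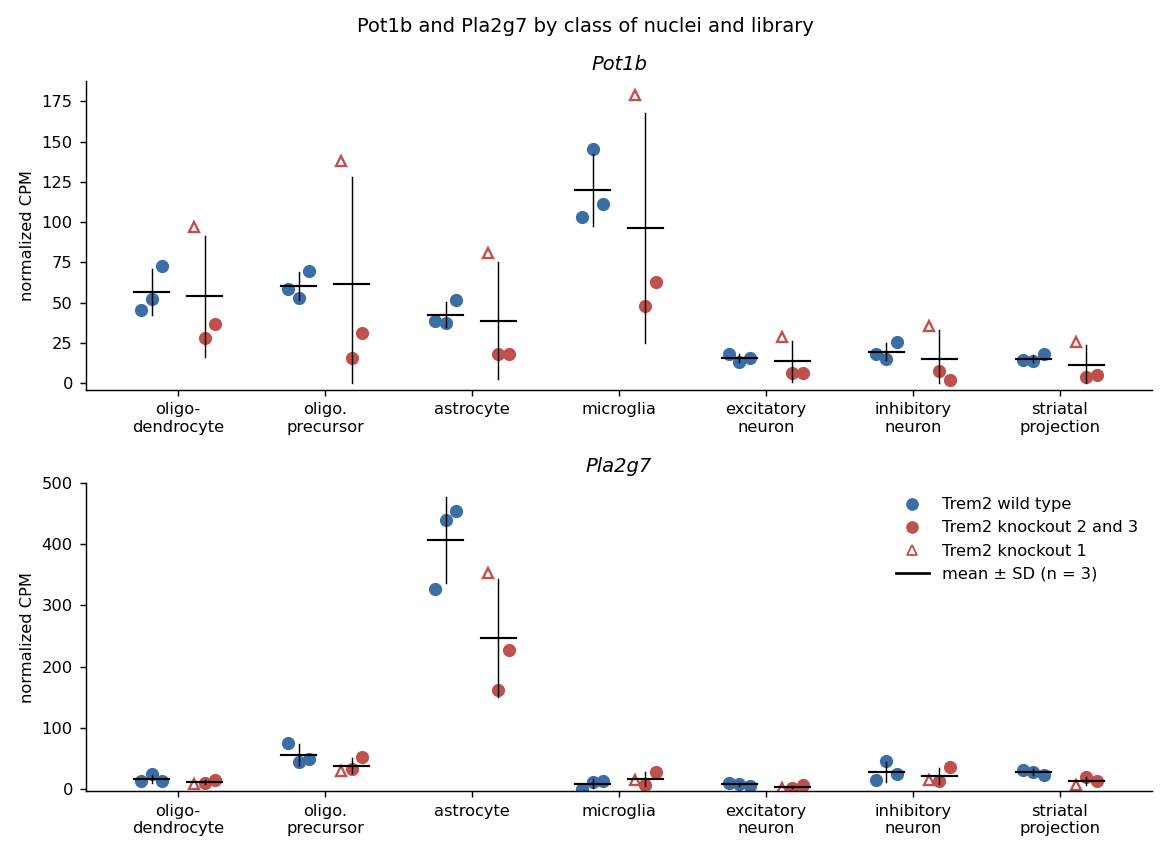
Normalized CPM (vertical axes) of Pot1b and Pla2g7 in 7 classes of nuclei, with 1 point per library and the mean ± SD of 3 libraries per genotype. For Pot1b the open triangle of knockout replicate 1 is above, and the other 2 knockout points below, the wild-type points in every class shown; Pla2g7 is highest in astrocytes, at 326 to 454 in wild type.

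Prss27 was a low gene that was lower in knockout although it lies 24.3 Mb from Trem2. Over all nuclei it was at 2.87, 4.24 and 3.29 CPM in wild type against 1.39, 1.24 and 1.59 in knockout, from 30, 56 and 44 UMIs and 50, 14 and 22 UMIs. The groups did not overlap, the knockout mean was 40.6% of wild type, and the log2 difference was -1.30 with knockout replicate 1 and -1.28 without it. Excitatory neurons held 40 of its 130 wild-type UMIs, at 2.70, 6.12 and 4.27 CPM, against 1.42, 0.958 and 0.982 in knockout from 14, 3 and 2 UMIs, beside a background of 5.52% lower. That share covers genes that passed the low-count filter, which Prss27 did not in this class. Inhibitory neurons had 3, 9 and 2 UMIs in wild type against 2, 0 and 0 in knockout. Prss22 and Kctd5, its nearest tested neighbours, overlapped between the genotypes, at 0.448 to 1.89 and 6.89 to 8.59 CPM in wild type against 0.694 to 2.74 and 6.99 to 12.2 in knockout.

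The classes in which the genes are normally found were compared within wild type, a measure that did not choose the genes. The genes and Trem2 were left out of the clustering, but the classes were still formed from other genes of the same nuclei, so the differences are given with their errors and without a p. Levels here are plain CPM of each class, as mean ± SD over 3 libraries, and the fitted log2 difference sets a class against the mean of the other 6. The order of levels holds among these 7 classes and not for smaller or unnamed clusters. The background is wide: in edgeR, 22.0% of 11343 genes were higher at an adjusted p below 0.05 in oligodendrocytes, 30.5% in excitatory neurons, 17.5% in astrocytes and 18.5% in microglia.

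Tjap1 was highest in oligodendrocytes, at 93.0 ± 11.5 CPM (SD, n = 3). Oligodendrocyte precursors followed at 45.4 ± 30.3, then excitatory neurons at 28.7 ± 5.7, astrocytes at 25.6 ± 19.0, striatal projection neurons at 23.2 ± 3.4 and inhibitory neurons at 19.4 ± 2.9, with no UMI in microglia. Neighbours in this order, microglia aside, had overlapping ranges, but excitatory neurons (22.9 to 34.3) lay above inhibitory neurons (16.6 to 22.5). The ranges of oligodendrocytes (80.3 to 102) and precursors (26.5 to 80.4) met at their ends. The oligodendrocyte difference was 3.14 (SE 0.28) and, since microglia at 0 lower the mean of the others, 1.88 (SE 0.19) without the microglia class. Dlk2 was highest in excitatory neurons at 118 ± 36 CPM, above every library of the other 6 classes. Striatal projection neurons (39.3 ± 25.6) and inhibitory neurons (39.0 ± 4.0) did not differ beyond their spread, and oligodendrocytes (19.5 ± 8.0), precursors, microglia and astrocytes (8.95 ± 6.6) had overlapping ranges. The excitatory difference was 2.74 (SE 0.18).

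Among the 7 classes Pla2g7 was highest in astrocytes at 340 ± 55 CPM, with no overlap with the other 6, and the difference was 4.42 (SE 0.18). The pooled border macrophage level of 316 CPM, on 21 UMIs, lay inside the astrocyte range of 279 to 385. Precursors came next at 44.7 ± 13.5, and the lowest were excitatory neurons at 7.98 ± 2.85 and microglia at 6.74 ± 5.86. Pot1b was highest of the 7 classes in microglia at 96.9 ± 16.8 CPM (difference 1.42, SE 0.28), above every library of the other 6, while border macrophages had a pooled level of 105 CPM on 7 UMIs. Oligodendrocytes at 53.3 ± 10.6 and precursors at 48.0 ± 4.6 overlapped, astrocytes were at 35.6 ± 4.3, and the neuronal classes were lowest, at 15.1 ± 1.5 to 19.2 ± 4.5, with differences of -0.99 to -1.13. With classes drawn by the gate on marker UMIs the differences were smaller, at 1.78 for Tjap1 in oligodendrocytes, 0.98 for Dlk2 in excitatory neurons and 2.30 for Pla2g7 in astrocytes. For Pot1b the difference was then 0.48 in microglia and 1.29 in oligodendrocytes, so the larger was in oligodendrocytes.

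**Figure D4:**
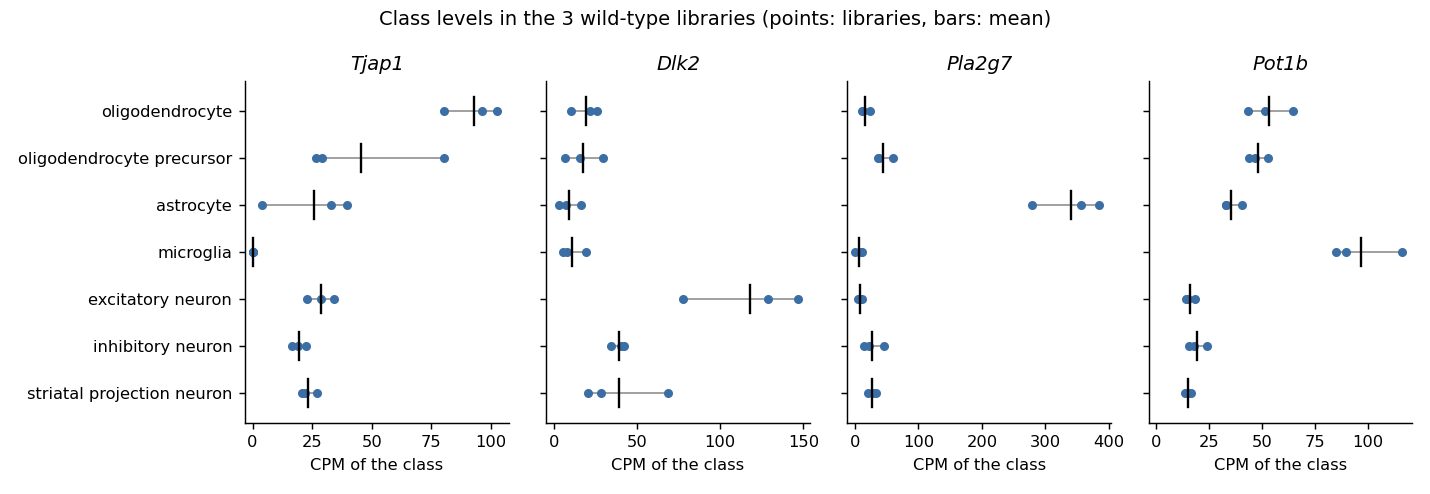
Plain CPM of each class (horizontal axes) for Tjap1, Dlk2, Pla2g7 and Pot1b in the 3 wild-type libraries, with 1 point per library, a grey line for the range and a black bar for the mean. The highest of the 7 classes is oligodendrocytes for Tjap1 (93.0), excitatory neurons for Dlk2 (118), astrocytes for Pla2g7 (340) and microglia for Pot1b (96.9).

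The genes whose wild-type pattern was most like each of these were ranked by Pearson correlation of log2(CPM + 1) over the 21 sums of 7 classes in 3 libraries, which share libraries and depth. For Tjap1 they were Xrcc2 (r = 0.937), Magi2 (0.935) and Ypel1 (0.923), and for Dlk2 they were Nova2 (0.867), Ociad2 (0.866) and Cfap65 (0.858). For Pla2g7 they were Id4 (0.895), Slc27a1 (0.891) and Fam184a (0.884), for Pot1b Pak2 (0.949), Rassf2 (0.935) and Lamp2 (0.934), and for Prss27 Pcdhgb7 (0.786), Ssx2ip (0.728) and Rnf185 (0.724). The Prss27 ranking rests on few UMIs, with 1 in microglia, 1 in precursors, 4 in oligodendrocytes and 8 in astrocytes over the wild-type libraries. Guca1b had too few UMIs for any such ranking.

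The other genes of the region were counted by the same rules. Without the listed genes, Trem2 and H2 genes, 83 genes within 5 Mb of Trem2 were tested over all nuclei, and 0 were called, with 4 at an unadjusted p below 0.05; DESeq2 called 0. In 4 of them every knockout library was higher and in 2 every knockout library was lower, together 7.23%, against 10.8% of genes on other chromosomes. The median log2 difference was 0.11 within 5 Mb and 0.05 on other chromosomes. Without knockout replicate 1, 24.1% of the 83 genes did not overlap against 18.7% elsewhere, with 13 higher and 7 lower. In oligodendrocytes, 2 of 37 genes within 5 Mb were higher and 2 lower in every knockout library, together 10.8% against 9.86% elsewhere.

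The 10 genes within 5 Mb with the smallest unadjusted p had an adjusted p of 0.699 each over all nuclei in edgeR. Of these, Ptk7, a receptor-like kinase gene, was at 1.53, 3.56 and 2.24 CPM in wild type against 20.0, 5.22 and 4.56 in knockout. Bicral, a chromatin remodelling subunit gene, was at 28.7, 37.5 and 37.4 in wild type against 144, 49.6 and 54.5 in knockout. Both were higher in every knockout library and most in replicate 1, without which their log2 differences went from 2.02 to 0.98 and from 1.26 to 0.59. Lrfn2, a synaptic adhesion gene, was at 10.8 to 12.1 CPM in wild type against 209, 8.67 and 12.4 in knockout, and its log2 difference went from 2.76 to -0.11. Kif6, Usp49, Supt3, Plcl2, Rcan2, Tbc1d5 and Lrrc73 made up the remainder. Among 155 other genes tested within 10 Mb, the lowest log2 difference was -1.01 with 6 libraries and -1.42 without knockout replicate 1, beside -5.45 and -4.46 for Guca1b. Guca1b was chosen on this contrast, and it passed the low-count filter through its wild-type counts alone. Its place among the other genes is therefore a description only.

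**Figure D5:**
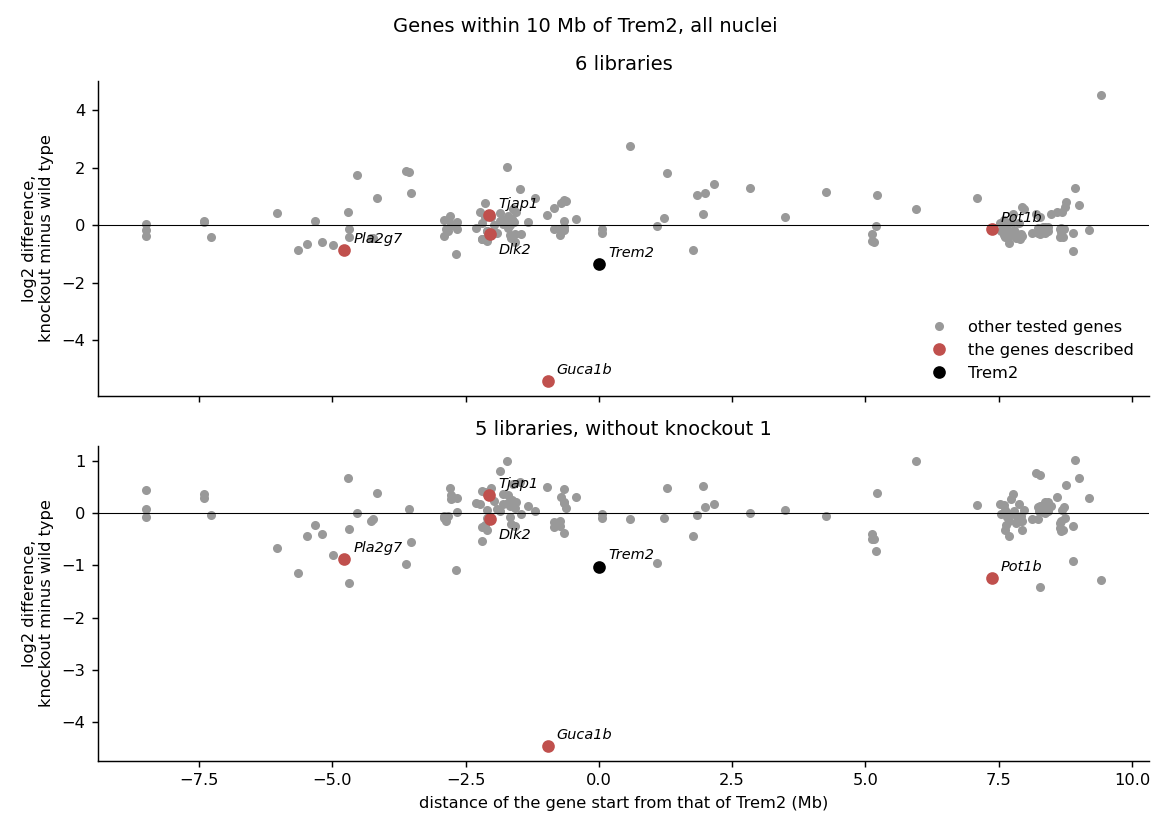
Fitted log2 difference over all nuclei, knockout minus wild type (vertical axes), against the distance of each gene start from that of Trem2 in Mb (horizontal axis), with 6 libraries above and without knockout replicate 1 below. Guca1b (-5.45 and -4.46) stands below the grey points of the 155 other genes, and it passed the low-count filter through its wild-type counts alone. Pot1b moves from -0.13 to -1.25 between the panels. Prss27 lies outside the range shown.

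Genes that work with or resemble each of the listed genes, taken from lists of known partners, were not called in any class or over all nuclei (edgeR, 0.0% called among all genes tested, beside 620 genes over all nuclei at an unadjusted p below 0.05). Over all nuclei, 10 of 13 tested calcium sensor and phototransduction partners of Guca1b were higher and 3 lower, with a median log2 difference of 0.85 that became 0.12 without knockout replicate 1. The potassium channel-interacting gene Kcnip4 in that list was at 164, 165 and 355 CPM in wild type against 9160, 211 and 113 in knockout. Of 17 tight junction genes, 14 were higher and 3 lower (median 0.42, and 0.05 without replicate 1), and the scaffold gene Tjp1 was at 89.3 to 102 CPM in wild type against 571, 92.3 and 92.3 in knockout. Of 19 Notch pathway genes, 12 were higher and 7 lower (median 0.09, and 0.06 without replicate 1). Of 16 platelet-activating factor and phospholipase A2 genes, 10 were higher and 6 lower (median 0.18, and 0.06 without replicate 1). Of 14 telomere genes, 5 were higher and 9 lower (median -0.08, and -0.12 without replicate 1). Terf2, a shelterin subunit, was at 12.7 to 14.6 CPM in wild type against 30.3, 15.6 and 15.4 in knockout. Dkc1, a telomerase component, was at 29.8 to 34.9 against 18.3, 25.3 and 29.1. Of 11 trypsin-like protease genes, 5 were higher and 6 lower (median -0.11). Without replicate 1, 13 of them were tested, with 7 higher and 6 lower (median 0.08). The median over all genes tested was 0.05, or 0.02 without replicate 1.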

How the data were processed

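Nuclei of 6 frontal lobes (3 Trem2 wild type, 3 knockout) were profiled with a 3′ droplet kit, per the labels' protocols. The deposited matrices hold whole UMI counts per gene and barcode, made by the authors with Cell Ranger 6.1.2 or, for knockout replicate 1, 7.0.0, per the file headers, on mm10 per the submitters' processing notes. Filters before deposit, the intron setting and the use of strand were given by none of the sources used here.

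Of 39752 barcodes, 34281 passed limits of 200 or more genes and 5% or less mitochondrial UMIs, and 1273 were removed as doublets (Scrublet in scanpy 1.11.5, expected rate 6%). Of the 39552 barcode sequences, 200 occurred in more than 1 library. Nuclei were clustered on 2000 variable genes, without the listed genes and Trem2, and 30 components into 29 clusters. A cluster was named where at least 3 markers had a log2 difference of 0.8 or more, the list mean reached 0.5, an own marker was in its top 50 genes and no other class had as many in the top 10; these limits were set after seeing the data. Counts were summed per library and class and tested with edgeR 4.0.16 (TMM, low-count filter, quasi-likelihood, two-sided, Benjamini-Hochberg, threshold 0.05), the tool behind every adjusted p and SE. Normalized CPM uses TMM factors within a class. Class levels in wild type were fitted with the library as a block. Alternatives were DESeq2 1.42.0, other size factors, no filter, all barcodes, a gate on marker UMIs and leaving out each library; the class fit without microglia was added after seeing the data. The code was tested on simulated counts.

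The genes and all lists were chosen with earlier results of these data known. Named genes are the listed genes, Trem2, their nearest tested neighbours, the 10 smallest p within 5 Mb, up to 3 per partner list and the 3 most alike in wild type; the text names a selection of them. Identifiers were matched to GENCODE M21 (GRCm38), 99.6% of 32285. Floors use 3 counts and cover the counting error of the low group only, and replicates are mice. Summed UMIs per library and class were between 103345 (microglia) and 13842759 (excitatory neurons), which limits the precision of low genes.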

Additional observations from a re-analysis of the deposited data

Results flagged for a closer look

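Dlk2 went opposite ways in a pair of classes: every knockout library was higher than every wild-type library in oligodendrocytes (log2 difference 1.83) and every knockout library was lower in inhibitory neurons (log2 difference -0.56). The effects differ by 2.38 on the log2 scale. The difference between the classes was not tested, because the gene was chosen on the genotype contrast. Without knockout replicate 1 the differences were 2.08 and -0.31, in the same directions and no closer to each other. With classes drawn by a gate on marker UMIs they were 0.96 and -0.24, in the same directions but closer to each other. Groups of 3 libraries are too small for a check of outlying samples.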

How the results depend on the processing

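No paired analysis was possible because the labels give no replicate numbers that pair mice across genotypes. The genotype fits called 0 genes over all nuclei and in each class. Without a filter on low counts the fits called 245 genes in microglia, 510 in astrocytes, 312 in oligodendrocytes and 432 in oligodendrocyte precursors; the cause was not tested. DESeq2 called 1 in astrocytes. Leaving out 1 library gave 0 to 2 genes in microglia, 0 to 1 in oligodendrocytes and 0 to 5 in oligodendrocyte precursors, the highest each without knockout replicate 1, and 0 elsewhere. The share of genes within 5 Mb of Trem2 whose groups did not overlap was 7.23%, and 14.3% to 26.7% when 1 library was left out, since fewer libraries separate more easily; limits of 1, 3 and 8 Mb moved it by less than its counting interval. Class contrasts in wild type called 4196 genes in microglia, 3434 in astrocytes, 1930 in oligodendrocyte precursors and 4590 in inhibitory neurons, and with classes from a gate on marker UMIs 928, 992, 860 and 2541; the cause was not tested.

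Of 25 fitted genotype differences of the listed genes, 16 kept their sign under every alternative and 9 did not; the others were Pot1b in 5 sets, Tjap1 in astrocytes and striatal projection neurons, Pla2g7 in inhibitory neurons and Dlk2 in striatal projection neurons. Of 28 class levels, 8 alternative values reversed. With the marker gate these were Dlk2 in astrocytes (0.32), inhibitory neurons (-0.54), microglia (0.25) and striatal projection neurons (-0.039), and Tjap1 in inhibitory neurons (-0.98). Without the microglia class they were Tjap1 in excitatory (-0.26), inhibitory (-1.12) and striatal projection neurons (-0.46), where the comparison no longer holds a class at 0. The class differences for Tjap1 in oligodendrocytes, Dlk2 in excitatory neurons, Pla2g7 in astrocytes and Pot1b in microglia kept their sign in every alternative that gave a value, and were 1.78, 0.98, 2.30 and 0.48 with the marker gate. Depth limits Guca1b and Prss27, which had no fit in any class with all 6 libraries.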
